A study of Mus musculus with 32 samples.

Results

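The genes described here are 10 transcription factor genes of the neural crest, *Sox10*, *Foxd3*, *Tfap2a*, *Tfap2b*, *Sox9*, *Snai1*, *Snai2*, *Ets1*, *Pax3* and *Sox8*. They were chosen by name and matched by Ensembl identifier to the deposited tables, where all 10 were found among 48576 identifiers. RNA was sequenced from forebrain (Fb) and midbrain (Mb) tissue of E9.5 mouse embryos in 32 libraries, to ask which genes change when type II cadherins are lost. Each tissue had 6 WT libraries, 4 of *Cdh6/8/11* TKO embryos with exencephaly (TKO_Ex), 3 of DKO embryos with exencephaly (DKO_Ex) and 3 of DKO embryos with a cranial defect (DKO_CD), all on the B6C3F1 background. DKO_Ex is a *Cdh8/11* genotype. The labels give *Cdh6/8* for DKO_CD, whereas the methods describe *Cdh8/11* embryos without exencephaly and with an elongated Mb. The mutant alleles were small Cas9 deletions around the start codons, made together in the same mice and bred through triple heterozygotes. In 12 DKO files the column heading and the sample record name opposite DKO groups, and the libraries are grouped here by heading. WT embryos came from separate WT matings, so genotype and litter cannot be told apart.

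The neural crest arises at the edge of the neural plate, where border genes such as *Pax3* and the AP-2 genes come on before the specifiers *Foxd3*, *Snai1*, *Snai2*, *Sox9* and *Sox10*. Crest cells then leave the neural tube and, in the head, give rise to much of the mesenchyme, the cranial ganglia and pigment cells. Several of these factors are also active elsewhere in the head, *Tfap2a* in surface ectoderm, *Sox9* in mesenchyme and cartilage precursors, *Ets1* in endothelium and *Pax3* in the dorsal neural tube.

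Levels are FPKM, the fragments of a gene scaled to its length and to the library's mapped fragments, which is the unit the authors deposited. The depth, estimated from the step between low values, was 1.89 to 3.265 M fragments per library, so the low members rested on few fragments. *Foxd3* had about 0 to 13 fragments in a library (median 2), *Sox10* about 2 to 43 (median 10), *Snai2* about 4 to 29 (median 14) and *Sox8* about 3 to 80 (median 18). *Tfap2b* had the highest median, about 194. Because the tissue was bulk, fewer cells of a type and less RNA per cell cannot be told apart.

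The tissue labels were checked with regional genes. *Six3*, a factor of the anterior forebrain, was at 34.9 to 48.9 FPKM in the WT Fb and at 0 to 1.36 in the WT Mb. *En1*, a factor of the midbrain and its caudal border, was at 32.0 to 59.0 FPKM in 5 WT Mb libraries but at 3.57 in WT Mb 5. In the mutant Mb *En1* was at 42.6 to 65.5 FPKM in TKO_Ex and 43.4 to 62.4 in DKO_Ex. In DKO_CD Mb 1 to 3 it was at 25.4, 19.1 and 56.5. *Pax6*, which the authors used as a forebrain marker, overlapped between the tissues. It was at 46.5 to 65.9 FPKM in the WT Fb and 6.83 to 52.7 in the WT Mb. Its highest Mb values were 52.7 in WT Mb 5, 45.9 in WT Mb 3 and 40 in DKO_CD Mb 1. How cleanly each Mb piece was cut from the Fb was not tested. Among the mutant libraries, DKO_CD Fb 2 and TKO_Ex Fb 4 had high surface ectoderm markers, at a summed 246 and 262 FPKM against 72.6 to 119 in the WT Fb. DKO_CD Mb 2 had summed ectoderm markers of 98.2 FPKM, against 33.6 to 50.2 in the WT Mb, and the highest cranial mesenchyme markers of any Mb library, at 264 FPKM. Ectoderm sums above the WT range were also seen in TKO_Ex Fb 3 (197 FPKM), DKO_Ex Fb 2 (185 FPKM) and DKO_CD Mb 3 (79 FPKM), and just above it in DKO_Ex Mb 1 (54.7 FPKM) and TKO_Ex Mb 3 (50.9 FPKM). Where a fold change of a member given below moved by more than 1.5 times without WT Mb 5, DKO_CD Fb 2, DKO_CD Mb 2 and TKO_Ex Fb 4, the value without them follows it.

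Of the targeted genes, *Cdh6* was at 0.388, 0.353, 3.10 and 0.345 FPKM in TKO_Ex Mb 1 to 4 and at 1.84, 0.766, 3.74 and 0.572 FPKM in TKO_Ex Fb 1 to 4. The libraries labelled TKO_Ex 3 thus lay within the WT range, 2.04 to 4.0 FPKM in the Fb and 1.04 to 3.55 in the Mb, and the other TKO_Ex libraries lay below it. *Cdh8* was at 0.423 to 0.702 FPKM in the DKO_Ex Fb, below the WT Fb range of 0.840 to 1.96, but at 0.911 to 3.15 in the TKO_Ex Fb, 1.63 to 2.49 in the DKO_Ex Mb and 0.851 to 2.32 in the TKO_Ex Mb, which reached the WT ranges (1.14 to 10.1 in the Mb). *Cdh11* was at 14.5 to 16.6 FPKM in the TKO_Ex Mb, below the WT Mb range of 17.9 to 28.7, and at 17.1 to 18.7 in the DKO_Ex Fb, below the WT Fb range of 19.5 to 25.3. It reached the WT ranges in the TKO_Ex Fb (19.8 to 21.4) and the DKO_Ex Mb (17.6 to 18.7). In the DKO_CD libraries *Cdh11* spanned 12.7 to 27.2 FPKM, and *Cdh6* 1.29 to 3.43. *Cdh8*, which both the labels and the methods give as mutated there, was at 0.449, 1.44 and 0.988 FPKM in DKO_CD Fb 1 to 3 and at 1.47, 1.0 and 1.25 in DKO_CD Mb 1 to 3, overlapping the WT range in both tissues. A small deletion need not remove the transcript, so these levels check the labels only in part.

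In the WT Fb, *Snai1* was the highest member at 21.5 ± 2.76 FPKM (mean ± SD, n = 6), followed by *Sox9* at 16.2 ± 2.27 and *Tfap2b* at 13.5 ± 3.64. *Ets1* at 10.4 ± 1.65 FPKM, *Tfap2a* at 7.80 ± 2.33, *Sox8* at 6.35 ± 1.48 and *Pax3* at 4.97 ± 0.747 came next. *Snai2* at 2.58 ± 0.427 FPKM, *Sox10* at 2.57 ± 1.70 and *Foxd3* at 0.312 ± 0.285 were the lowest. Neighbours in this order overlapped in range, except *Pax3* and *Snai2*, and *Sox10* and *Foxd3*.

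The order in the WT Mb was led by *Pax3* at 15.2 ± 5.08 FPKM, *Tfap2b* at 12 ± 3.59, *Snai1* at 11.3 ± 3.6 and *Ets1* at 7.79 ± 1.52. *Sox9* at 5.02 ± 0.531 FPKM, *Tfap2a* at 3.54 ± 0.913 and *Snai2* at 2.63 ± 1.06 followed. *Sox8* at 1.76 ± 0.837 FPKM, *Sox10* at 1.37 ± 1.07 and *Foxd3* at 0.754 ± 0.817 closed it. Only *Ets1* and *Sox9* did not overlap in range with each other among neighbours. *Pax3* thus ranked seventh in the Fb and first in the Mb.

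**Figure D1:**
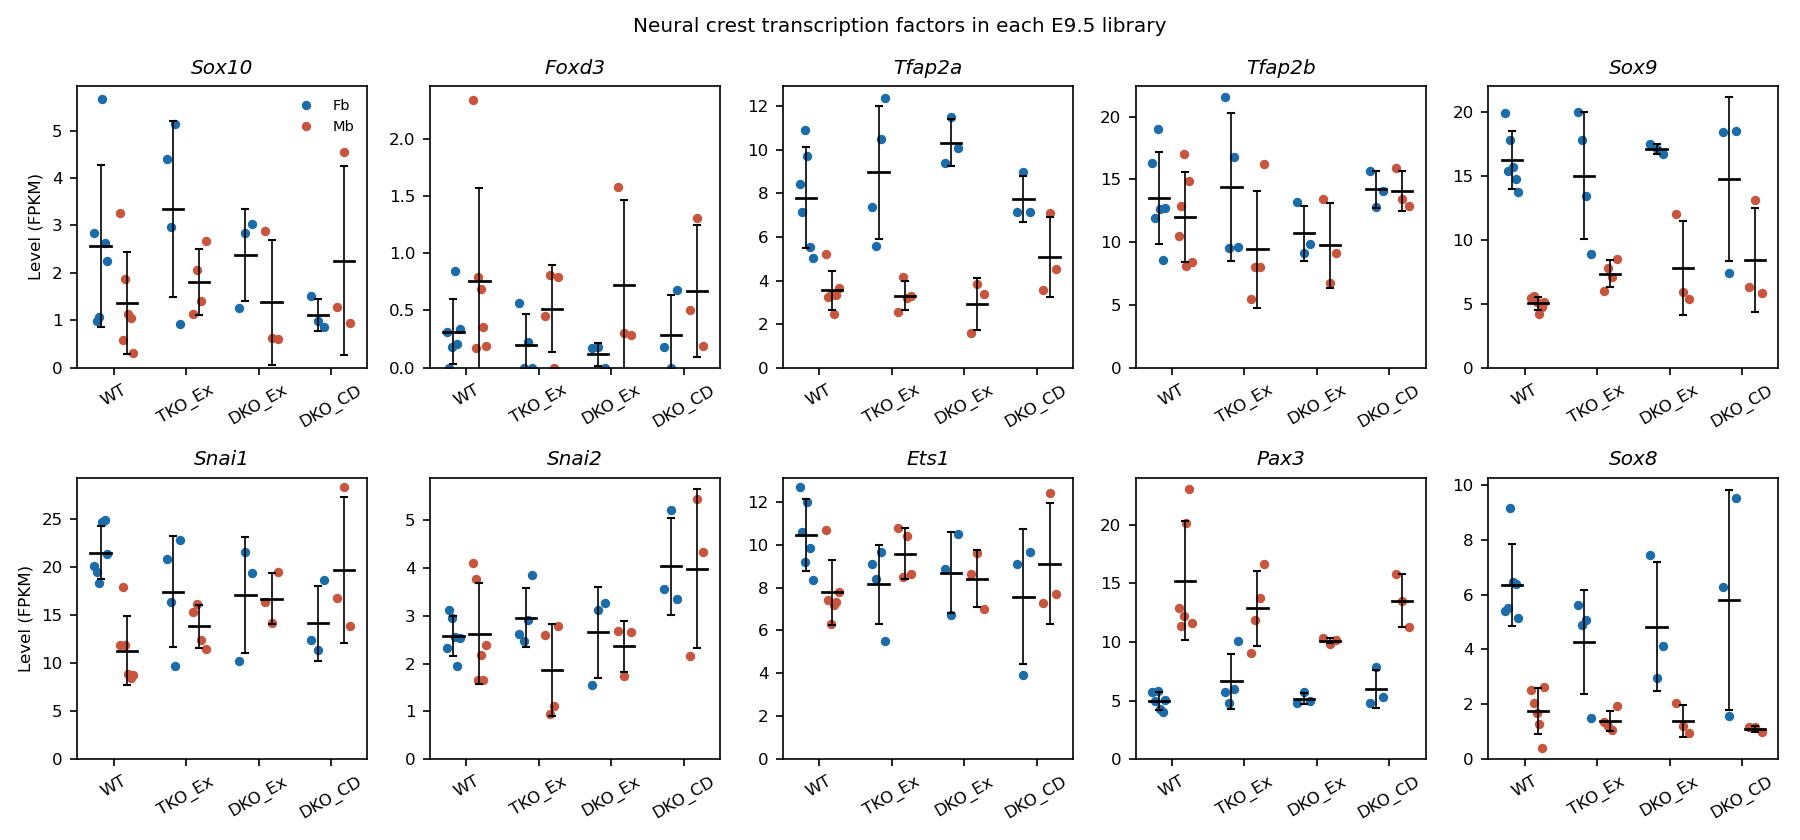
Level of each gene (FPKM, vertical axis from 0) in every library, by genotype, with Fb in blue and Mb in red; black lines are the group mean ± SD, cut at 0. *Sox9* and *Sox8* sit higher in the WT Fb than in the WT Mb and *Pax3* lower, with no overlap, while mutant and WT points of a tissue mostly share a range.

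The WT tissues were compared first. Of the 9 members with a mean of at least 1 FPKM, 4 were lower and 1 was higher in the Mb than in the Fb (limma, Benjamini-Hochberg adjusted p under 0.05), and *Foxd3* was too low to be tested. Of all 13344 genes tested, 8.26% passed in either direction, 4.66% higher and 3.60% lower. The median log2 fold change was -0.58 over the 9 members and -0.00 over all genes. The 9 values are a description of these genes and no sign of a common behaviour.

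Among border factors, *Pax3*, a paired-box factor of the dorsal neural tube, was at 3.99, 4.96 and 5.84 FPKM (lowest, median, highest) in the WT Fb and at 11.4, 12.6 and 23.1 in the WT Mb. All 6 Mb libraries lay above all 6 Fb libraries. The log2 fold change of FPKM + 1 was 1.40 ± 0.18 (SE, adjusted p = 0.000156, limma). The 2 highest Mb values came from WT Mb 4 and WT Mb 5, and without WT Mb 5, the library low at *En1*, the change was 1.28.

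*Tfap2a*, an AP-2 factor of crest and surface ectoderm, was at 5.04, 7.79 and 10.9 FPKM in the WT Fb and at 2.48, 3.33 and 5.23 in the WT Mb. Only WT Mb 1 reached the Fb range, and the log2 fold change was -0.93 ± 0.19 (adjusted p = 0.00613, limma). Its relative *Tfap2b* was at 8.61, 12.6 and 19.0 FPKM in the WT Fb and at 8.09, 11.7 and 17.0 in the WT Mb. The ranges almost coincided, with a log2 fold change of -0.17 (95% interval -0.61 to 0.27) that did not pass the test and lay at -0.07 without WT Fb 3 and at -0.28 without WT Fb 5.

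Among the SoxE genes, *Sox9* was at 13.7, 15.5 and 19.9 FPKM in the WT Fb and at 4.15, 5.10 and 5.62 in the WT Mb. No library of one tissue reached the other, and the log2 fold change was -1.51 ± 0.11 (adjusted p = 9.04e-07, limma). *Sox8*, a SoxE gene of crest and glia, was at 5.13, 5.96 and 9.17 FPKM in the WT Fb and at 0.401, 1.87 and 2.62 in the WT Mb, again without overlap. Its log2 fold change was -1.46 ± 0.22 (adjusted p = 0.000830, limma). *Sox10*, which migratory crest cells keep on as they become glia and pigment cells, was at 0.982, 2.43 and 5.66 FPKM in the WT Fb and at 0.311, 1.09 and 3.27 in the WT Mb. The tissues overlapped widely, and the log2 fold change of -0.58 had a 95% interval of -1.30 to 0.15 (adjusted p = 0.366, limma), and was -0.37 without WT Fb 4.

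*Snai1*, a zinc-finger repressor of *Cdh1* in cells that leave an epithelium, was at 18.3, 20.8 and 24.9 FPKM in the WT Fb and at 8.42, 10.4 and 17.9 in the WT Mb. The highest Mb library, WT Mb 2, lay just under the lowest Fb library. The log2 fold change was -0.91 ± 0.16 (adjusted p = 0.00262, limma). The related *Snai2* was at 1.95, 2.55 and 3.13 FPKM in the WT Fb and at 1.66, 2.28 and 4.10 in the WT Mb, a log2 fold change of -0.02 (95% interval -0.42 to 0.38), and 0.06 without WT Mb 5. Only *Snai1* of this pair passed the test, and the difference between the pair was not itself tested.

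*Ets1*, an ETS factor of cranial crest and endothelium, was at 8.35, 10.2 and 12.7 FPKM in the WT Fb and at 6.31, 7.37 and 10.7 in the WT Mb. Of the Mb libraries 5 lay below the whole Fb range and WT Mb 1 lay within it. The log2 fold change was -0.39 ± 0.13 (adjusted p = 0.0974, limma), and *Ets1* passed the test only when WT Mb 1 was left out. *Foxd3*, a forkhead factor of premigratory crest, was at 0, 0.257 and 0.842 FPKM in the WT Fb and at 0.170, 0.519 and 2.34 in the WT Mb. These values stand on a few fragments and overlap.

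The groups did not overlap for 4 of the 10 members (*Sox9*, *Snai1*, *Sox8* and *Pax3*), against 5.59% of all genes tested. In two-sided exact permutation tests, these 4 had p = 0.00216, the smallest that 6 against 6 libraries allow, and 0.0379 after adjustment over the 70 member tests. *Tfap2a* had an exact permutation p of 0.00433 (adjusted 0.0606).

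**Figure D2:**
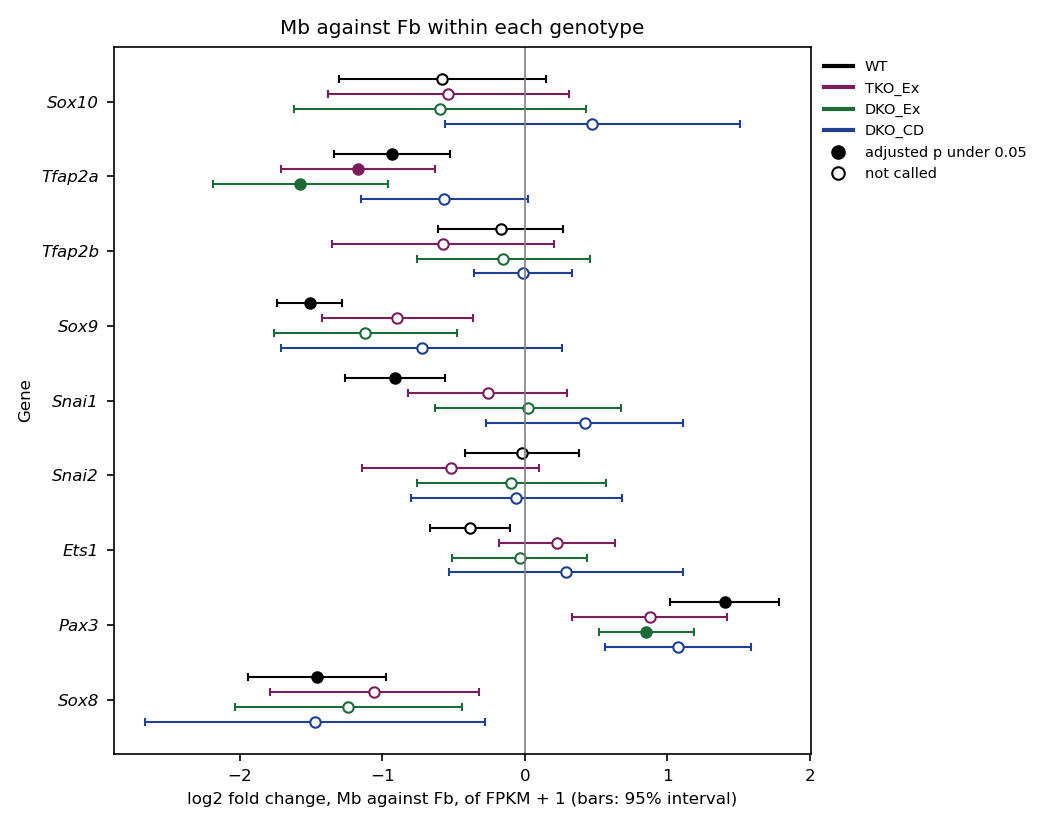
Log2 fold change of FPKM + 1, Mb against Fb, for the 9 tested genes in each genotype, with 95% intervals; filled points passed an adjusted p under 0.05. In WT, *Sox9*, *Sox8*, *Tfap2a* and *Snai1* fell and *Pax3* rose, while the intervals of *Tfap2b*, *Snai2* and *Sox10* span 0.

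*Snai1*, on chromosome 2 (167538195 to 167542814, plus strand, GRCm38), is shown here with part of its promoter. Promoters of 250 bases before to 50 bases after the start were found in the RefSeq table (GRCm38.p6) for 5 of the 10 members, *Tfap2b*, *Snai1*, *Foxd3*, *Tfap2a* and *Sox8*. Both strands were searched for the Snail E-box CAGGTG, for the AP-2 motif GCCNNNGGC and for the Sox motifs ACAATG and ACAAAG. Only the *Snai1* promoter held any, and its stretch from 150 to 51 bases before the start (chr2:167538045-167538144, plus strand) is shown because *Snai1* is one of the genes that differed between the tissues. Capitals mark, from left to right, the E-box 126 bases, the AP-2 motif 87 bases and ACAAAG 69 bases before the start.
Snai1 promoter: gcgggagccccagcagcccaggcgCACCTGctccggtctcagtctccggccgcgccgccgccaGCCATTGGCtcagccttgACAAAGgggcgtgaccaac
Of 32851 promoters of the same length, 20.2% held the E-box, 16.6% the AP-2 motif, 12.6% ACAATG and 18.7% ACAAAG. A match is a description of the letters and no evidence of binding.

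The other crest genes were taken from lists. Of 15 border genes tested, 8 were higher and 3 lower in the WT Mb, with a median log2 fold change of 0.50. *Gbx2*, a factor of the hindbrain side of the border between midbrain and hindbrain, rose by 2.01 and *Id2* rose by 1.08, whereas *Dlx5*, a factor of the anterior plate border, fell by 3.27 and *Hes1*, a Notch target, fell by 1.14. Of 16 migratory crest genes tested, 2 were higher and 6 lower, with a median of -0.33. *Ednrb*, the endothelin receptor of crest cells, rose by 1.78 on the log2 scale, while *Sox5* fell by 1.70, *Erbb3*, the neuregulin receptor of crest-derived glia, fell by 1.26 and *Twist1*, a factor of mesenchyme, fell by 1.08. *Crabp1*, a retinoid-binding protein and the most abundant gene of that list, did not pass (log2 fold change -0.29).

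Roof plate signals, which induce crest from the dorsal midline, had 5 higher and 3 lower of 10 tested. *Wnt1* rose by 3.09 on the log2 scale, *Wnt3a* by 1.72, *Gdf7* by 1.72 and *Lmx1b* by 1.63. Of 11 genes of epithelial-mesenchymal transition and adhesion, 3 were higher and 1 lower: *Vim* rose by 0.93, *Zeb2* by 0.86 and *Zeb1* by 0.58, and *Cdh1*, the epithelial cadherin that *Snai1* represses, fell by 1.5. Of 3 tested genes of melanoblasts or glial crest, *Fabp7*, which is also on the neuroepithelium list, rose by 2.23 and *Mitf* fell by 0.90.

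Markers of other cell types moved with the same comparison. Of 13 cranial mesenchyme genes tested, 8 were lower and 1 was higher in the WT Mb (median -0.98). Counted by sign alone, 10 of the 13 were lower and 3 higher. Among those that fell, *Alx1* fell by 2.63, *Alx4* by 1.71 and *Prrx1* by 1.70 on the log2 scale. The summed level of the 13 genes, of which *Col3a1* was the most abundant, was 219 to 264 FPKM in the WT Fb and 104 to 200 in the WT Mb. Of 8 surface ectoderm genes tested, 6 were lower and none was higher (median -1.22). Their list of 10, most abundant *Krt18*, summed to 72.6 to 119 FPKM in the WT Fb and 33.6 to 50.2 in the WT Mb. *Epcam* fell by 2.05, *Esrp1* by 1.82 and *Grhl2* by 1.32, beside *Cdh1*. None of the 10 endothelial genes, summing to 61.1 to 79.9 FPKM in the Fb and 47.5 to 86.4 in the Mb, passed the test. Of 8 cranial placode genes tested, 2 were higher and 4 lower in the WT Mb (median -0.90), with *Neurog1* and *Pax8* higher by 2.82 and 2.12 and *Dlx6* lower, where it fell by 2.72.

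Neural genes moved as well. Of 5 neuronal genes tested, 4 were higher in the WT Mb and none was lower (median 1.36). *Elavl4*, an RNA-binding protein of neurons, rose by 1.89, *Elavl3* by 1.77, *Dcx* by 1.36 and *Neurog2* by 1.35, and the list, most abundant in *Neurog2*, summed to 6.14 to 11.9 FPKM in the WT Fb and 21.2 to 48.7 in the WT Mb. Of 7 neuroepithelial genes, 3 were higher and 1 lower (median 0.19). *Hes5*, a Notch target of neural progenitors, rose by 1.87 and *Nes* by 0.77 beside *Fabp7*, whereas *Pax6* fell by 1.5. That list, most abundant in *Sox2*, summed to 284 to 384 FPKM in the WT Fb and 428 to 563 in the WT Mb. None of 5 genes of primitive red cells passed. No mesenchyme or ectoderm marker was at 0 in every library. The part of these cell types in the levels of *Sox9*, *Snai1*, *Tfap2a*, *Sox8* and *Pax3* was not tested.

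**Figure D3:**
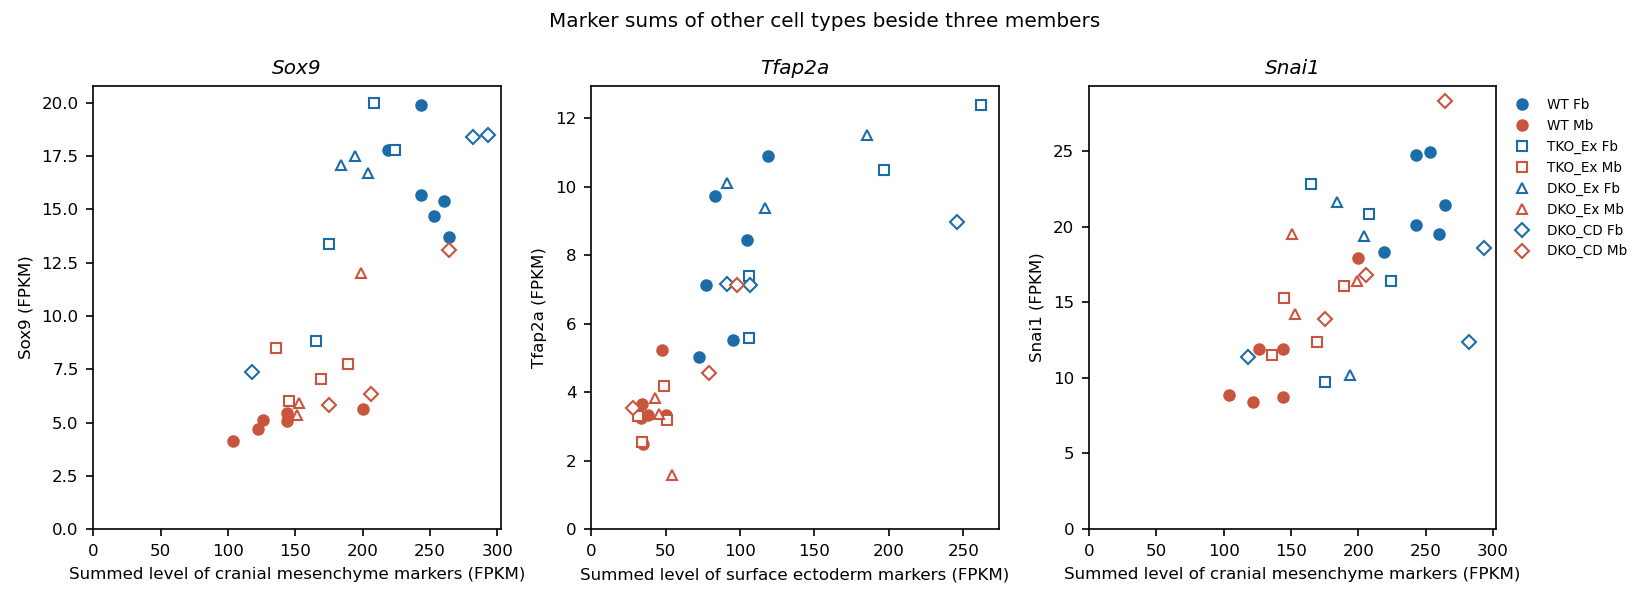
Level of *Sox9*, *Tfap2a* and *Snai1* (FPKM) in each library against the summed level of cranial mesenchyme or surface ectoderm markers (FPKM), with Fb in blue and Mb in red and filled symbols for WT. In WT, Fb libraries lie at higher marker sums than Mb libraries in all 3 panels.

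Within the mutants, the tissues were compared in the same way. In TKO_Ex, *Tfap2a* alone passed (1 of 9, against 2.89% of all genes), at 7.39, 5.58, 10.5 and 12.4 FPKM in the Fb and 2.55, 4.18, 3.19 and 3.30 in the Mb. Every Fb library lay above every Mb library, but the share of all genes without overlap was not counted within TKO_Ex. The log2 fold change was -1.17 ± 0.24 (adjusted p = 0.0349, limma). The call held without TKO_Ex Fb 2 but was lost when any of the other 7 libraries was left out. The adjusted p in limma then ran from 0.0576 to 0.112. Over all of these fits the log2 fold change stayed between -1.35 and -1.01. In a fit with the replicate number as a block, the call was lost as well. Without TKO_Ex Fb 4, *Sox9* (-1.11), *Sox8* (-1.39) and *Pax3* (1.07) passed instead and *Tfap2a* (-1.01) did not, with adjusted p = 0.0789 in limma. Surface ectoderm markers moved with *Tfap2a*: 5 of 10 were lower in the TKO_Ex Mb and none was higher (median log2 fold change -1.52), and they summed to 106, 106, 197 and 262 FPKM in TKO_Ex Fb 1 to 4 and to 31.6 to 50.9 in the Mb. The 2 highest *Tfap2a* libraries were thus the 2 highest in ectoderm markers, whose part in the call was not tested. *Sox8* in TKO_Ex Fb 4 was at 1.48 FPKM, against 4.90 to 5.64 in the other TKO_Ex Fb libraries.

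In DKO_Ex, *Tfap2a* and *Pax3* passed (2 of 9, against 2.58% of all genes). *Tfap2a* stood at 9.39, 11.5 and 10.1 FPKM in DKO_Ex Fb 1 to 3 and 1.59, 3.83 and 3.36 in DKO_Ex Mb 1 to 3, a log2 fold change of -1.57 ± 0.26 (adjusted p = 0.0267, limma). *Pax3* stood at 4.82, 5.69 and 4.98 FPKM in the Fb and at 10.3, 9.86 and 10.2 in the Mb, a log2 fold change of 0.85 ± 0.14 (adjusted p = 0.0269, limma). Neither gene overlapped between the tissues, but the share of all genes without overlap was not counted within DKO_Ex. Of 9 surface ectoderm markers tested, 3 were lower in the DKO_Ex Mb and none was higher. *Tfap2a* was lost without DKO_Ex Fb 1, Fb 2, Fb 3 or Mb 3 (adjusted p = 0.0687 to 0.102, limma) and *Pax3* without any 1 of the 6 libraries (adjusted p = 0.062 to 0.12, limma). As single libraries were left out, the log2 fold change stayed between -1.75 and -1.30 for *Tfap2a* and between 0.81 and 0.91 for *Pax3*. With the replicate number as a block, the count of members that passed fell from 2 to 1. Grouped by the records in place of the headings, the DKO groups trade places, and the *Tfap2a* and *Pax3* calls go to DKO_CD. In DKO_CD none of the 9 passed in limma, against 0.507% of all genes. An unadjusted p under 0.05 in limma was found for 2, as for 10.1% of all genes. They were *Pax3* (log2 fold change 1.07) and *Sox8* (-1.47). Here *Sox9* measured 18.4, 7.36 and 18.5 FPKM in Fb 1 to 3 and 6.32, 13.1 and 5.82 in Mb 1 to 3, and the ranges overlapped through the libraries numbered 2. Without both of these, its log2 fold change was -1.46, against -0.72 with all libraries (adjusted p = 0.0798 and 0.658, limma).

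*Snai1*, singled out after its values were seen, had within-mutant log2 fold changes of -0.26 in TKO_Ex, 0.02 in DKO_Ex and 0.42 in DKO_CD, against -0.91 in WT. Without the libraries that stood apart, the TKO_Ex value was -0.12 and the DKO_CD value 0.01. The TKO_Ex value was -0.45 without TKO_Ex 3 in both tissues, and the DKO_Ex value ran from -0.29 to 0.22 as single libraries were left out. The interaction of genotype and tissue for *Snai1* was 0.65 ± 0.29 in TKO_Ex, 0.93 ± 0.32 in DKO_Ex and 1.33 ± 0.32 in DKO_CD. None of these passed over all genes (adjusted p = 0.756, 1.0 and 0.881, limma), and no member passed any of the 3 interactions in limma, where 7 of 27 tests (*Snai1* in all 3, *Sox9* and *Ets1* in TKO_Ex and DKO_CD) had an unadjusted p under 0.05. Among all genes, that share was 6.5% in TKO_Ex, 3.88% in DKO_Ex and 4.83% in DKO_CD. After adjustment, 0.0149% of all genes passed in TKO_Ex, 0 of 13349 genes in DKO_Ex and 0.00746% in DKO_CD. All 3 interactions use the same 12 WT libraries. Without the 4 libraries that stood apart, the *Snai1* interactions were 0.73, 0.87 and 0.85, those of *Sox9* went from 0.61 to 0.38 in TKO_Ex and from 0.79 to 0.03 in DKO_CD, and those of *Ets1* from 0.61 to 0.44 and from 0.67 to 0.08. The *Snai1* interaction in TKO_Ex was 0.45 without TKO_Ex 3 in both tissues and 0.41 without TKO_Ex Fb 3 alone, and in DKO_Ex it was 0.62 without DKO_Ex Fb 1. Cranial mesenchyme markers had positive interactions in 11 of 13 in TKO_Ex and in 13 of 13 in DKO_Ex and DKO_CD (medians 0.63, 0.68 and 0.61), none of which passed. Their part in the *Snai1* values was not tested.

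The mutant groups were then compared with WT within each tissue, in 6 comparisons that share the WT libraries of a tissue. None of the 9 members passed in any of them in limma, and none did under any alternative. An unadjusted p under 0.05 was found in 6 of 54 limma tests and in 5 of 60 exact permutation tests, which included *Foxd3*. Over all genes and the same 6 comparisons, 7.44% of the limma tests had one. Against WT Mb, the share of all genes that passed was 0.0898% for TKO_Ex, 0.0903% for DKO_Ex and 0.0375% for DKO_CD. Against WT Fb, it was 0.0603% for TKO_Ex, 0.0759% for DKO_Ex and 0.0378% for DKO_CD. The median log2 fold change over the 9 members lay between -0.22 in the DKO_CD Fb and 0.40 in the DKO_CD Mb. Both ends rested on the DKO_CD libraries numbered 2, and without the libraries that stood apart these medians were 0.03 and 0.15. With all libraries, the 95% intervals reached from -1.46 to 1.37 for *Sox10* over the 6 comparisons, and from -0.97 to 0.75 for *Tfap2b*.

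The shifts described next did not pass and were picked for their size or lack of overlap after the values were seen. *Sox9* in the Mb was at 6.02, 7.76, 7.04 and 8.51 FPKM in TKO_Ex, at 12, 5.94 and 5.36 in DKO_Ex and at 6.32, 13.1 and 5.82 in DKO_CD, against a highest WT level of 5.62. All TKO_Ex and DKO_CD libraries and 2 of 3 DKO_Ex libraries lay above every WT library. The groups did not overlap for 1.74% of all genes in the TKO_Ex Mb and 3.38% in the DKO_CD Mb. The log2 fold changes were 0.47 ± 0.13 in TKO_Ex, 0.47 ± 0.22 in DKO_Ex and 0.57 ± 0.22 in DKO_CD (adjusted p = 0.302, 0.904 and 0.699, limma). Exact permutation p was 0.00952 in TKO_Ex and 0.0238 in DKO_CD, the smallest each design allows, and 0.111 and 0.167 after adjustment. Without the libraries that stood apart, the TKO_Ex value was 0.45 and the DKO_CD value 0.22, and the DKO_Ex value was 0.15 without DKO_Ex Mb 1. Cranial mesenchyme markers, none of which passed, were above WT on average in 9 of 11 tested in the TKO_Ex Mb, 10 of 10 in DKO_Ex and 11 of 11 in DKO_CD (median log2 fold changes 0.24, 0.17 and 0.64). They summed to 145, 189, 169 and 136 FPKM in TKO_Ex Mb 1 to 4, to 199, 153 and 151 in DKO_Ex Mb 1 to 3 and to 206, 264 and 175 in DKO_CD Mb 1 to 3, against 104 to 200 in WT. DKO_Ex Mb 1 and DKO_CD Mb 2, the highest in *Sox9*, were also the highest of their groups in these markers, whereas TKO_Ex Mb 4, the highest of TKO_Ex in *Sox9*, was the lowest of its group in them. *Alx4* and *Prrx1* of that list were among the 8 genes most like *Sox9* over all 32 libraries, which mix tissues and genotypes (r = 0.89 for both). The part of mesenchyme in the *Sox9* levels was not tested.

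*Snai1* in the Mb was at 15.3, 16.1, 12.4 and 11.5 FPKM in TKO_Ex, at 16.4, 14.2 and 19.5 in DKO_Ex and at 16.8, 28.3 and 13.9 in DKO_CD, with a WT range of 8.42 to 17.9. In the Fb it was at 20.8, 16.4, 9.70 and 22.8 FPKM in TKO_Ex, at 10.2, 21.6 and 19.4 in DKO_Ex and at 12.4, 11.4 and 18.6 in DKO_CD, with a WT range of 18.3 to 24.9. Mutant and WT libraries overlapped in all 6 comparisons. The log2 fold changes were 0.31, 0.56 and 0.73 in the Mb of TKO_Ex, DKO_Ex and DKO_CD, and -0.34, -0.37 and -0.60 in the Fb. Single libraries carried several of these: the DKO_CD Mb value was 0.38 without the libraries that stood apart, the TKO_Ex Fb value -0.10 without TKO_Ex Fb 3 and the DKO_Ex Fb value -0.06 without DKO_Ex Fb 1. Cranial mesenchyme markers were below WT on average in most cases in the Fb, 12 of 13 in TKO_Ex, 12 of 13 in DKO_Ex and 9 of 13 in DKO_CD, again with none that passed and with no test of their part in *Snai1*. Surface ectoderm markers were above WT on average in 10 of 10 tested in the TKO_Ex Fb, 7 of 9 in DKO_Ex and 9 of 10 in DKO_CD. In the Mb these ectoderm markers were above WT in 3 of 6, 4 of 6 and 7 of 7. None of them passed, and their part in *Snai1* or *Sox9* was not tested.

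*Pax3* in the DKO_Ex Mb, at 9.86 to 10.3 FPKM, lay below all 6 WT libraries, which started at 11.4, in a comparison where 3.0% of all genes did not overlap in either direction. Its log2 fold change was -0.50 ± 0.23 (adjusted p = 0.904, limma), and -0.37 without WT Mb 5. *Snai2* in the DKO_CD Fb, at 3.57, 5.21 and 3.35 FPKM, lay above the WT range of 1.95 to 3.13, in a comparison where 4.22% of all genes did not overlap in either direction. Its log2 fold change was 0.49 ± 0.18 (adjusted p = 0.523, limma), and 0.33 without DKO_CD Fb 2. Surface ectoderm markers, none of which passed, were above WT on average in 9 of 10 in the DKO_CD Fb (median 0.40) and summed to 107, 246 and 91 FPKM in DKO_CD Fb 1 to 3, against 72.6 to 119 in WT, so that the library highest in *Snai2* was also the highest in them. Their part in *Snai2* was not tested. No member was free of overlap with WT in the TKO_Ex Fb (2.23% of all genes) or the DKO_Ex Fb (3.70%). *Ets1* was at 5.51 to 9.64 FPKM in the TKO_Ex Fb and at 8.48 to 10.8 in the TKO_Ex Mb, an interaction of 0.61 ± 0.21 with adjusted p = 0.730 in limma. *Sox10* overlapped with WT in all 6 comparisons, with its lowest group mean in the DKO_CD Fb, with single libraries at 1.5, 0.972 and 0.848 FPKM.

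**Figure D4:**
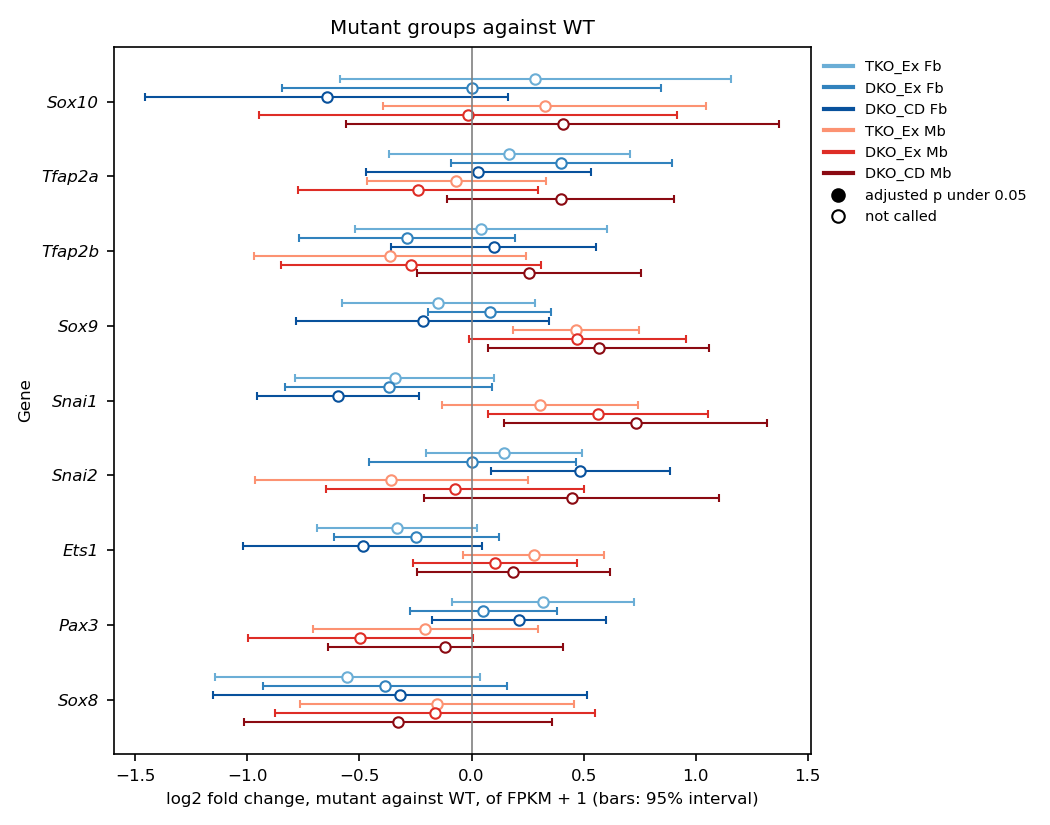
Log2 fold change of FPKM + 1, mutant against WT, for the 9 tested genes, with Fb in blue and Mb in red shades and 95% intervals; open points did not pass the threshold. All 54 points are open, the 3 Mb points of *Sox9* and *Snai1* lie above 0 and the 3 Fb points of *Snai1* below 0.

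The members differed in how they varied from library to library. Of 90 correlations computed, 45 pairs of members in each tissue, 11 had a Pearson r beyond 0.6 in size, 8 in the Fb and 3 in the Mb. For 6 of the 8 Fb pairs the libraries farthest from the median were TKO_Ex Fb 4 and DKO_CD Fb 2, which stood apart, and r without them was between -0.19 and 0.32. The following 2 pairs were picked after their values were seen. In the Fb, *Sox9* and *Sox8* had a Pearson r of 0.78 (Spearman rho 0.50) across 16 libraries, which fell to 0.20 without TKO_Ex Fb 4 and DKO_CD Fb 2. In the Mb, *Sox10* and *Foxd3* had an r of 0.83 (rho 0.84) across 16 libraries and 0.78 without WT Mb 1 and DKO_CD Mb 2, on few fragments. These are descriptions over libraries that share genotype groups and depth.

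Across all 32 libraries, the genes most like the mean of the 10 members, each scaled alike, were *Twist1* (r = 0.81), *Prrx1* (0.75), *Slc27a3* (0.74), *Arhgdia* (0.73), *Gfpt2* (0.73), *Pkdcc* (0.72), *Plcg2* (0.72) and *Foxc1* (0.71). For *Sox10* alone they were *Slc27a3* (0.66), *Fzd7* (0.65), *Pabpc1* (0.63), *Casc4* (0.63), *St6gal2* (0.62), *Nolc1* (0.62), *Rpap2* (0.60) and *Prcc* (0.60). *Twist1* was at 78.0 ± 10.2 FPKM in the WT Fb and 37.1 ± 9.15 in the WT Mb (SD, n = 6). The pooled values mix both tissues and 4 genotypes, and the likeness includes that difference.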

How the data were processed

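TopHat2 alignments of the directional libraries (GRCm38) went into Cufflinks, and the authors deposited its FPKM values. Their HTSeq counts and DESeq2 tests were not used here. Versions and the annotation are not given in the sources used here. In 12 DKO files the column heading and the record name opposite DKO groups, and headings were followed. Values of 65 repeated identifiers were summed. Genes were named from GENCODE M21 (48218 of 48576 identifiers), and depth was estimated from the value steps of 771 genes with a single transcript, 4000 bp or longer.

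The R package limma 3.58.1 (R 4.3.3) was fitted to log2(FPKM + 1) with a trended prior variance. Genes averaging 1 FPKM or more in the libraries of a fit entered it, and calls were made at a Benjamini-Hochberg adjusted p under 0.05. This log scale understates changes of low genes. The model was tested on simulated data with a set spread between libraries, changing genes higher than *Foxd3*, *Sox10* and *Snai2*. Of log2 changes of 1, it recovered 92.7% between the WT tissues and 79% in TKO_Ex against WT in the Mb. It recovered 65.5% in DKO_Ex against WT in the Mb and 65.3% in DKO_CD against WT in the Fb. For the TKO_Ex interaction it recovered 34.4%, so a change of that size could be missed. Changes of 2 were recovered in 99.1% to 100%. For single members, exact permutation tests were run in Python 3.11.15, with the two-sided p taken as double the smaller tail. This replaced the absolute difference after results had been seen. Replicates are libraries with separate labels, so p-values measure the spread between libraries.

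Named genes were the 10 members, the targeted cadherins, up to 4 genes with the largest called change and the most abundant gene of each list, and the 8 genes most like *Sox10* or the members' mean. Some genes that this rule names are not reported here. Members and lists were chosen with earlier results of these data known. Alternatives were pseudocounts of 0.1 and 5, no filter, one fit, a replicate block, 2 scalings, no trend, a fold change limit, grouping by record and leaving out each library, with 2 sets of left-out libraries and the other two-sided p chosen after seeing the data.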

Additional observations from a re-analysis of the deposited data

Results flagged for a closer look

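In 4 of 40 groups of a member gene tested for it (WT and TKO_Ex in either tissue), 1 library lay far from the rest, where chance flags about 1 in 20 groups. *Foxd3* in WT Mb 1 was at 2.34 FPKM, with the next WT Mb library at 0.791. *Snai1* in WT Mb 2 was at 17.9 FPKM, with the next at 11.9. *Ets1* in WT Mb 1 was at 10.7 FPKM, with the next at 7.78. *Sox8* in WT Fb 3 was at 9.17 FPKM, with the next at 6.46.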

How the results depend on the processing

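In WT, the same 5 members (*Sox9*, *Sox8*, *Snai1*, *Tfap2a* and *Pax3*) passed between the tissues under every alternative but the limit of a log2 fold change of at least 1, which left 3 (429 of all genes in place of 1102), and leaving out WT Mb 1, which added *Ets1* (leave-one-out range 5 to 6). In TKO_Ex the count of 1 became 0 with a pseudocount of 5, with no filter, or without TKO_Ex 3 in both tissues, and 3 with all 8 groups in one fit or without the libraries that stood apart, with a leave-one-out range of 0 to 3. In DKO_Ex the count of 2 became 0 with no filter or grouped by record and 1 with the fold change limit, with a leave-one-out range of 0 to 2. In DKO_CD the count of 0 became 2 in one fit or grouped by record, with a leave-one-out range of 0 to 1. The cause was not tested. Over all genes, the counts of 389, 344 and 68 in these mutants ranged over 163 to 663, 68 to 542 and 26 to 362. For mutant against WT and the interactions, all 210 alternative counts of members were 0. None of the 8 called member values turned in sign under any alternative, but 44 of the 109 that were not called did under at least one, and 12 of 99 did without the libraries that stood apart. Of the values given above that were not called, *Snai2* between the WT tissues (-0.02) was 0.001 with a pseudocount of 5 and 0.06 without the libraries that stood apart (leave-one-out range -0.127 to 0.06). *Snai1* between the DKO_Ex tissues (0.02) was -0.023 with median-of-ratios scaling and -0.063 with quantile normalization (leave-one-out range -0.288 to 0.216).

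With the absolute difference as the two-sided statistic, used first and replaced after results had been seen, 8 in place of 5 of the 60 exact tests of mutants against WT had an unadjusted p under 0.05, and 0 passed after adjustment either way.

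With the replicate block, the count of members that passed between the tissues was 5 in WT, 0 in TKO_Ex, 1 in DKO_Ex and 0 in DKO_CD. No label says that a number marks an embryo, so the main fits did not take the numbers as pairs. Deviations from the group means correlated at 0.008 to 0.14 in same-numbered Fb and Mb libraries. Same-numbered mutant and WT libraries of a tissue gave -0.086 to 0.049. Of the same-numbered Fb and Mb libraries, 12 of 16 were each other's best match, and *Xist* was high or low alike in 16 of 16. Same-numbered libraries may thus share an embryo, and the main fits would then leave a pairing out. Fragments per gene limit *Foxd3*, *Sox10*, *Snai2* and *Sox8*.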
